A study of Mus musculus with 12 samples.

Results

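The 9 genes described here encode the carriers and pumps that move bile acids and other organic anions through hepatocytes. They are Slc22a7, Slco1a1, Slco1a4, Slco1b2, Slc10a1, Abcb11, Abcc2, Abcc3 and Abcc4, out of 36047 genes with a matched transcript. All 9 are among the 14670 genes that passed the low-count filter and were tested. The genes were chosen by name from measured values of these mice, with the diet comparisons already known, so their differences are given as a description and no p-value is printed for them. Liver RNA was sequenced from 12 male C57Bl/6J mice aged 5 to 6 months, 3 in each of 4 groups, after 7 days on the diets. RF.Ctrl mice ate a regular-fat control diet and RF.SAAR mice a regular-fat diet restricted in sulfur amino acids. HF.Ctrl and HF.SAAR mice ate high-fat control and restricted diets. The high-fat diets came from another maker than the regular-fat diets, so fat content and maker cannot be told apart. Fat supplied 18% of energy in the RF diets and 60% in the HF diets. All 4 diets lacked cysteine, and the SAAR diets also held less methionine, with glutamic acid in its place. Each mouse is a separate animal, and the numbers given to mice only name them. The data are from whole liver, so fewer cells of a type and less RNA per cell cannot be told apart.

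Hepatocytes take up bile acids and organic anions from sinusoidal blood through carriers of the basolateral membrane. They secrete them into bile through ATP-driven pumps of the canalicular membrane. Other pumps of the basolateral membrane return organic anions and conjugates to blood, and bile acid receptors such as FXR, encoded by Nr1h4, are known to regulate several of these genes. Slc10a1 encodes NTCP, the sodium-dependent bile acid carrier, and Slco1a1, Slco1a4 and Slco1b2 encode carriers of the OATP family that work without sodium. Slc22a7 encodes OAT2, an organic anion carrier. Abcb11 encodes BSEP, the bile salt export pump, and Abcc2 encodes MRP2, which exports conjugates into bile. Abcc3 and Abcc4 encode MRP3 and MRP4, pumps of the basolateral membrane.

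The 3 Slco genes lie in 1 stretch of chromosome 6 (GRCm38): Slco1b2 (ENSMUSG00000030236) at chr6:141629518-141686646 on the plus strand, Slco1a4 (ENSMUSG00000030237) at chr6:141805440-141856199 and Slco1a1 (ENSMUSG00000041698) at chr6:141907282-141946962, both on the minus strand. Slc22a7 (ENSMUSG00000067144) is at chr17:46432183-46438457, Slc10a1 (ENSMUSG00000021135) at chr12:80953183-80968705, Abcb11 (ENSMUSG00000027048) at chr2:69238282-69342616, Abcc3 (ENSMUSG00000020865) at chr11:94343295-94392997 and Abcc4 (ENSMUSG00000032849) at chr14:118482692-118706219, all on the minus strand. Abcc2 (ENSMUSG00000025194) is at chr19:43782192-43840740 on the plus strand. RefSeq promoters of GRCm38.p6 were matched for 7 of the 9 genes (all but Slc22a7 and Abcc3). The 200 bases before the start are shown for the chromosome 6 carriers and for the pump of bile acid export. Slco1a1 and Slco1a4 had restriction differences of opposite sign, neither at an adjusted p under 0.05 in edgeR. With regular fat the Slco1a4 groups overlapped. Any link between these sequences and the differences was not tested. Capitals mark a nuclear receptor half-site (AGGTCA, or TGACCT on the other strand) or an HNF1 half-site (GTTAAT, either strand).
Slco1a1, chr6:141946963-141947162, minus strand: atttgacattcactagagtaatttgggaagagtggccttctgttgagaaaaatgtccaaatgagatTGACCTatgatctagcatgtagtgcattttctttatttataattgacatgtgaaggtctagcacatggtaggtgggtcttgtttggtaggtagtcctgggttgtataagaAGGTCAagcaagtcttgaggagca
Slco1a4, chr6:141856221-141856420, minus strand: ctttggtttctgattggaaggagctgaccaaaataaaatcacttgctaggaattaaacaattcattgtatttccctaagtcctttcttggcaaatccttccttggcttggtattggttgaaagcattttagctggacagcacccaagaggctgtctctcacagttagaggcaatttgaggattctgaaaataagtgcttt
Slco1b2, chr6:141629318-141629517, plus strand: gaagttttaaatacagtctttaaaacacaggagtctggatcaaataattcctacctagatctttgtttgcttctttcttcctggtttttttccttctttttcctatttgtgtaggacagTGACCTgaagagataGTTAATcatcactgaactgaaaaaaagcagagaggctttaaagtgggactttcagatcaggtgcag
Abcb11, chr2:69342617-69342816, minus strand: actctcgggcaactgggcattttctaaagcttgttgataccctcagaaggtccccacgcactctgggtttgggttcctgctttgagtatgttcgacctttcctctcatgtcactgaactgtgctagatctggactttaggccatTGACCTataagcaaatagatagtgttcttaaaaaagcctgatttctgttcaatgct

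The windows of Slco1a1, Slco1b2 and Abcb11 end at the GENCODE start of the gene, and the RefSeq start of Slco1a4 lies 21 bases from its GENCODE start. Over the 250 bases before the start, AGGTCA was found in 4 of the 7 promoters (Slco1a1, Slco1b2, Abcb11 and Abcc2) and in 14% of 32851 promoters of this length. In Slco1a1 it occurred at bases -134 to -129 and at -24 to -19 from the start, and in Abcb11 at -56 to -51. GTTAAT was found only in Slco1b2, at -66 to -61, against 6.43% of all promoters. The antioxidant response element TGACNNNGC was in Abcc2 and Abcc4 (10.2% of all), the STAT site TTCNNNGAA in Slco1b2 and Slc10a1 (7.02%), and TATAAA in Slco1a1, Slco1b2 and Slc10a1 (12.4%). The HNF4A site CAAAGTCCA (0.384% of all), the C/EBP-ATF element TGATGNAAN (3.44%) and the C/EBP site TTGCNCAA (2.61%) were in none of the 7 windows. Both strands were searched, and no matches of different motifs overlapped in these windows. A match describes letters in the window and not a bound site.

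Total estimated counts lay between 16203094 and 21230092 per mouse. Levels in CPM are counts scaled to the same library total in every mouse after TMM scaling, with factors of 0.863 to 0.998 for control and 0.98 to 1.11 for restricted mice. Without the TMM factors the median log2 fold change over all genes became 0.164 for restriction with regular fat and 0.166 with high fat, so the differences given here are relative to the TMM scale. Hepatocyte markers were high in every mouse. The 10 of them summed to between 96700 and 110000 CPM in the RF.Ctrl mice, against 85100 to 93000 CPM for RF.SAAR. The sums were 89700 to 105000 CPM for HF.Ctrl and 88500 to 102000 CPM for HF.SAAR. The 5 erythroid markers summed to 594 to 672 CPM in RF.Ctrl mice, against 318 to 393 CPM for RF.SAAR, and to 444 to 468 CPM for HF.Ctrl, against 243 to 553 CPM for HF.SAAR. The 24 pancreatic acinar markers summed to over 1000 CPM in 5 mice, namely RF.Ctrl mouse 1 (1380), HF.Ctrl mice 1 and 2 (1680 and 6110) and HF.SAAR mice 2 and 3 (3660 and 17400). In the other 7 mice they summed to 40.5 to 85.4 CPM. Cholangiocyte markers summed to 70.7 to 98.1 CPM, with Cftr at 0 to 0.304 and Sctr at 0 to 0.188. Alternatives given below left out the pancreatic markers, or the 5 mice rich in them, which leaves 1 mouse in each HF group. Beyond that, the part of these marker differences in the results was not tested.

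By length-scaled level (TPM), the genes spanned a wide range. Slco1b2 was the most abundant at 513.3 TPM on average over the 12 mice, followed by Slc10a1 at 359.9 TPM and Slco1a1 at 201.7 TPM. The canalicular pumps followed, with Abcb11 at 119 TPM and Abcc2 at 68.4 TPM. Slc22a7 (30.2 TPM), Abcc3 (29.6 TPM) and Slco1a4 (23.2 TPM) were close together, and Abcc4 was the lowest at 0.606 TPM. The order held in all 12 mice for every neighbouring pair except 2. Slc22a7 was above Abcc3 in 5 of 12 mice, and Abcc3 was above Slco1a4 in 9 of 12. Over the 12 mice, CPM varied 3.47-fold for Slco1a4 and 3.38-fold for Slc22a7, the widest ranges, and 1.52- to 1.89-fold for the other 7 genes.

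**Figure D1:**
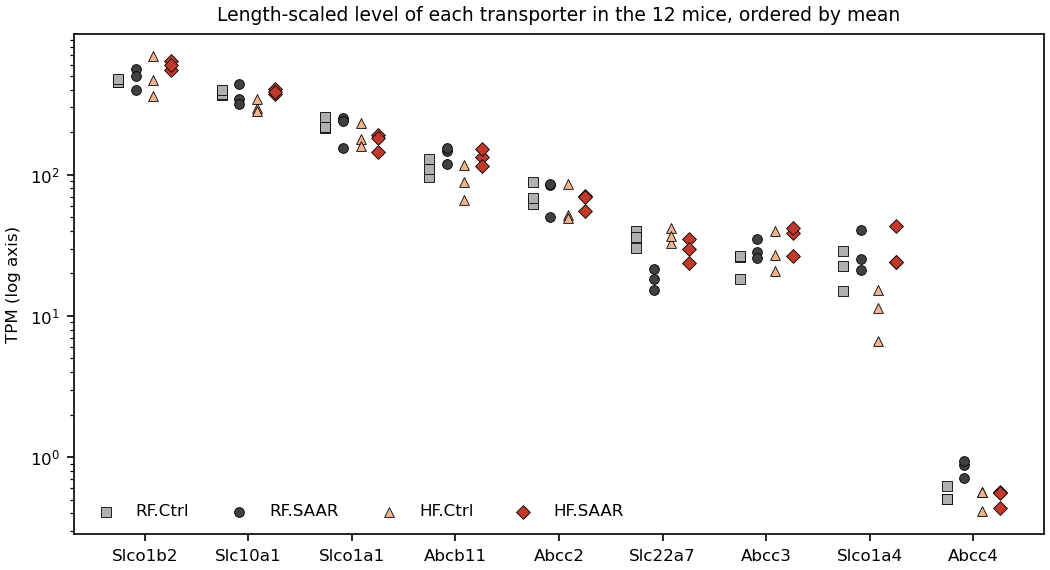
TPM of each transporter (y axis, log scale) in the 12 mice, with marker shape and color for the 4 groups of 3, ordered by mean. Slco1b2 is highest at a mean of 513.3 TPM and Abcc4 is lowest at 0.606 TPM, and Slc22a7, Abcc3 and Slco1a4 lie close together.

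Slc22a7, the organic anion carrier OAT2, fell under restriction at both fat levels and was the one member called. In RF.Ctrl mice its level was 60.1, 71.7 and 66.8 CPM, and in RF.SAAR mice it was 29.7, 25.8 and 25.9 CPM. Every restricted mouse was below every control mouse. The group means were 66.2 ± 5.82 and 27.1 ± 2.25 CPM (SD, n = 3 each), and the log2 fold change was -1.29 ± 0.13 (SE), so that it fell by 59%. In HF.Ctrl mice the level was 87, 79.4 and 66.1 CPM, and in HF.SAAR mice it was 54.3, 43.2 and 43.8 CPM. Again the groups did not overlap. Here the means were 77.5 ± 10.6 and 47.1 ± 6.26 CPM, with a log2 fold change of -0.72 ± 0.128, and it fell by 39.2%. The gene was called in both comparisons, that is at a Benjamini-Hochberg adjusted p under 0.05 in edgeR's quasi-likelihood test over 14670 genes.

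The RF call of Slc22a7 held in all 22 alternative settings, with log2 fold changes from -1.36 to -1.12. The HF call held in 18 of 22, from -0.834 to -0.303. It was lost without HF.Ctrl mouse 1 (-0.628), without HF.SAAR mouse 3 (-0.67), for its most abundant transcript (-0.739) and without the 5 mice rich in pancreatic markers (-0.303), which leaves 1 mouse in each HF group. In TPM, RF.Ctrl mice (30.2 to 40) and RF.SAAR mice (15.2 to 21.5) were likewise apart, whereas HF.Ctrl (33.1 to 42.1) and HF.SAAR mice (23.5 to 35.2) overlapped. Slc22a7-201 held 99.1% of the gene's counts, and none of the 2097 31-base stretches of its transcripts occurred in another gene.

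**Figure D2:**
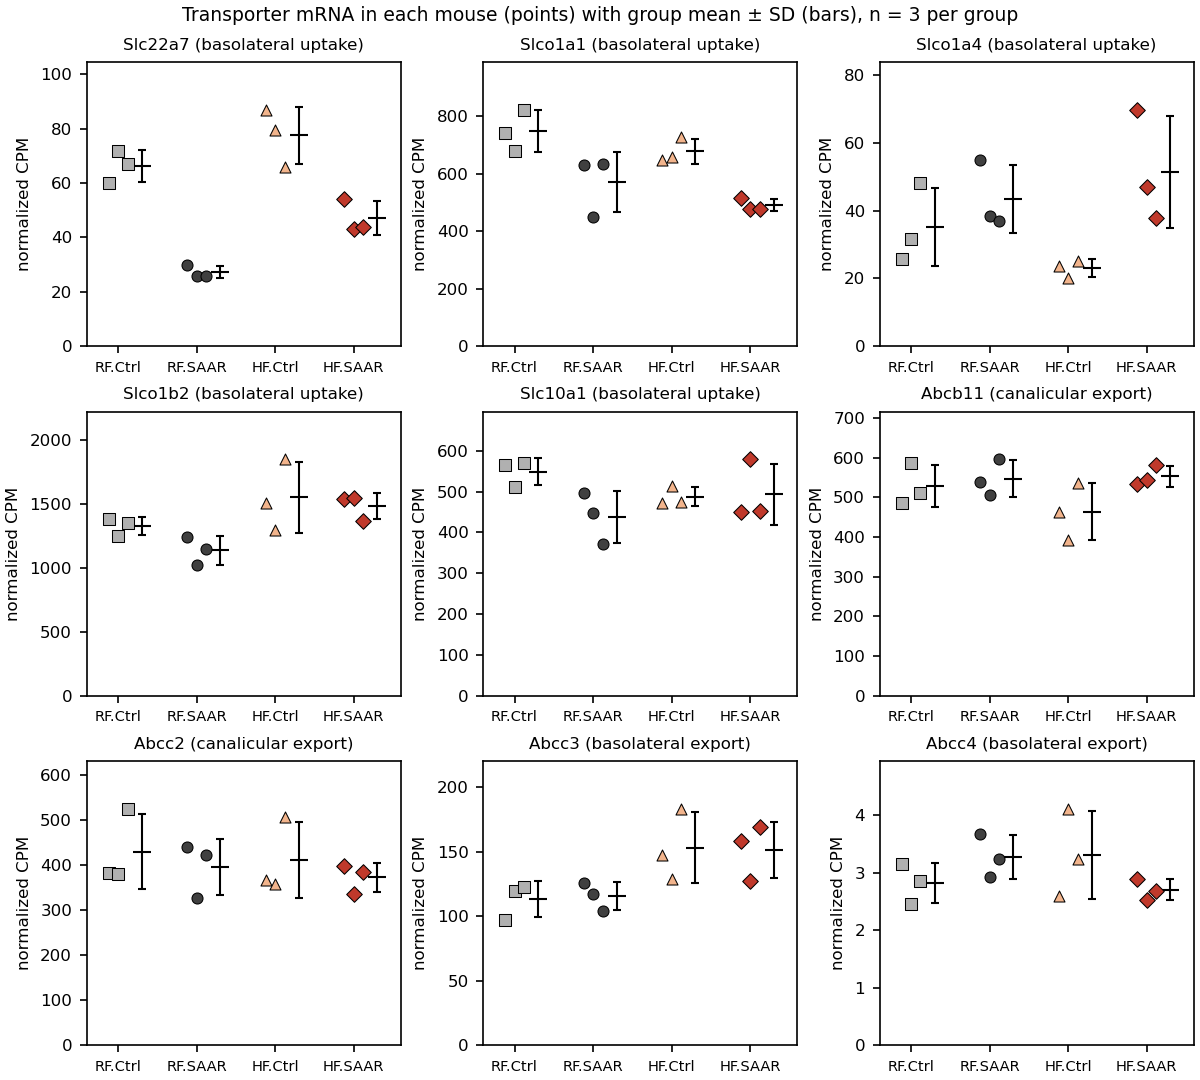
Normalized CPM (y axis, from 0) of each transporter in each mouse, by group (x axis), with points for mice and bars for mean ± SD (n = 3). Slc22a7 shows restricted mice below control mice at both fat levels, and Slco1a4 shows HF.SAAR mice above HF.Ctrl mice.

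Between the restricted groups, Slc22a7 was higher in HF.SAAR, at 43.2 to 54.3 CPM, than in RF.SAAR, at 25.8 to 29.7 CPM, with no overlap. The log2 fold change was 0.79 ± 0.129, and the gene was not called in that comparison. It was called under 4 of 22 alternatives. HF.Ctrl and RF.Ctrl mice overlapped (log2 fold change 0.23 ± 0.127). The difference between the diet effects, as an interaction of diet and fat, was 0.57 ± 0.181 and was not called.

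Of the OATP carriers, Slco1a1 was lower in every restricted mouse than in every control mouse at both fat levels. Its levels were 743.2, 677.9 and 823.3 CPM in RF.Ctrl and 629.8, 450.2 and 632.8 CPM in RF.SAAR. In HF.Ctrl they were 648, 658.3 and 727.8 CPM, and in HF.SAAR 514.2, 476.6 and 478.8 CPM. The log2 fold changes were -0.39 ± 0.126 and -0.47 ± 0.126, and neither was called. The high-fat difference was called with DESeq2 (-0.465) and when RF.SAAR mouse 2 was left out (-0.47). In TPM both pairs of groups overlapped. It was carried mainly by a pair of annotated transcripts, Slco1a1-201 with 59.3% of the counts and Slco1a1-202 with 38.3%.

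Slco1a4, its paralog, differed the other way. In RF.Ctrl its levels were 25.9, 31.6 and 48.2 CPM and in RF.SAAR 55, 38.4 and 36.9 CPM, which overlapped (0.30 ± 0.268). In HF.Ctrl they were 23.8, 20.1 and 25.2 CPM, and in HF.SAAR 69.9, 46.9 and 37.8 CPM, with every restricted mouse higher. The log2 fold change there was 1.16 ± 0.272 and was not called. It was called under 7 of 22 alternatives, including scaling by library size alone (1.32), DESeq2 (1.16) and the fit of the compared groups alone. Leaving out RF.Ctrl mouse 1, RF.Ctrl mouse 3, RF.SAAR mouse 1 or HF.SAAR mouse 3 also brought the call, with values of 1.16 to 1.34. HF.Ctrl mice were below RF.Ctrl mice in CPM with no overlap (-0.61 ± 0.272, not called). In TPM these groups overlapped, at 6.6 to 15.3 for HF.Ctrl and 14.9 to 28.9 for RF.Ctrl. The interaction was 0.86 ± 0.38 and was not called. Of its 31-base stretches 5.03% occurred in another gene, most often Slco1a5, and for Slco1a1 4% did, most often in Slco1a4, so a part of the counts of these paralogs was divided by likelihood.

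Expressed as a TPM ratio, Slco1a1 to Slco1a4 was 14.3, 9.67 and 8.89 in RF.Ctrl and 6.2, 7.29 and 9.45 in RF.SAAR. In HF.Ctrl it was 15.8, 24 and 15.2, and in HF.SAAR it was 4.39, 6.07 and 7.56. The HF groups did not overlap in this ratio and the RF groups did.

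For Slco1b2 and Slc10a1, the CPM of restricted and control mice were apart with regular fat and overlapped with high fat. Slco1b2 had 1244 to 1379 CPM in RF.Ctrl mice, against 1018 to 1240 CPM for RF.SAAR, without overlap (-0.22 ± 0.122). Its range was 1295 to 1849 CPM in HF.Ctrl mice, and the HF.SAAR mice, at 1366 to 1541 CPM, lay within it (-0.07 ± 0.122). Between restricted groups its CPM was higher in HF.SAAR in all 3 mice (0.38 ± 0.122). Its TPM overlapped there, at 399.4 to 560.8 for RF.SAAR and 553.7 to 643.1 for HF.SAAR. Slc10a1 was at 566, 510.5 and 570.6 CPM in RF.Ctrl and 495.4, 446.5 and 370.4 CPM in RF.SAAR, without overlap (-0.33 ± 0.124). It was at 473.2, 514.6 and 473.9 CPM in HF.Ctrl and 450, 579.7 and 451.4 CPM in HF.SAAR (0.02 ± 0.124). In TPM the regular-fat groups overlapped for both, with Slco1b2 at 455.8 to 477.8 in control and 399.4 to 560.8 in restricted mice and Slc10a1 at 367.9 to 399 and 315.4 to 441.8. The high-fat groups overlapped in TPM for Slco1b2 but not for Slc10a1. Slc10a1 had 284.5 to 342 TPM in HF.Ctrl mice and 372.1 to 401.5 TPM in HF.SAAR mice, unlike in CPM. The mean TPM of Slco1b2 was 463.3 ± 12.5 in RF.Ctrl mice and 486.9 ± 81.6 in RF.SAAR mice, the reverse of the order in CPM. None of the differences in CPM was called, nor was the interaction for Slco1b2 (0.16 ± 0.172) or Slc10a1 (0.35 ± 0.175). The counts of Slc10a1 were divided between Slc10a1-201 (54%) and Slc10a1-202 (44.1%), and the RF log2 fold change was 0.04 ± 0.199 for the first and -0.78 ± 0.238 for the second. Of the 31-base stretches of Slc10a1, 2.92% occurred in another gene, most often Senp1, and their part in this split was not tested. For Slco1b2, Slco1b2-201 held 99.5% of the counts.

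Neither canalicular pump was called, and the groups of both overlapped in the diet comparisons. Abcb11 was at 485.9, 588 and 510.5 CPM in RF.Ctrl and 539.1, 506.5 and 596.7 CPM in RF.SAAR, with a log2 fold change of 0.05 ± 0.119 and an interval of 2 SE from -0.186 to 0.289. In HF.Ctrl it was at 462.7, 392.4 and 536.9 CPM and in HF.SAAR at 532.6, 544 and 582.7 CPM, with a log2 fold change of 0.25 ± 0.119 and an interval from 0.0157 to 0.491. This interval holds only positive values, but the unadjusted p was not under 0.05. The high-fat value ranged from -0.032, without the 5 mice rich in pancreatic markers, to 0.41, with library size alone. Abcc2 had 380 to 526.2 CPM in RF.Ctrl mice and 326.2 to 441.4 CPM in RF.SAAR mice, a difference of -0.12 ± 0.167 with an interval from -0.451 to 0.217. With high fat the ranges were 358.5 to 508.2 CPM for control and 336.6 to 397.8 CPM for restricted mice (-0.14 ± 0.167, interval -0.473 to 0.195). With library size alone the sign turned for Abcc2, to 0.05 with regular and 0.02 with high fat, and with high fat also for Slco1b2 (0.09) and Abcc3 (0.14). Over the 22 alternatives both signs occurred for Slc10a1, Abcb11, Abcc2, Abcc3 and Abcc4 with regular fat, and for Slco1b2, Slc10a1, Abcb11, Abcc2 and Abcc3 with high fat.

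Of the basolateral export pumps, Abcc3 had higher CPM in every high-fat mouse than in every regular-fat mouse, among control and among restricted mice. It had 96.9 to 122.8 CPM in RF.Ctrl mice, against 129 to 183.4 CPM for HF.Ctrl, without overlap (0.44 ± 0.15). In the restricted groups it had 103.7 to 125.8 CPM with regular and 127.2 to 168.8 CPM with high fat, again without overlap (0.39 ± 0.15). Neither was called, and the restriction differences were 0.03 ± 0.15 with regular fat (interval -0.267 to 0.332) and -0.02 ± 0.15 with high fat (interval -0.317 to 0.282). In TPM the high-fat and regular-fat mice overlapped for Abcc3. RF.Ctrl mice had 18.3 to 26.7 and HF.Ctrl mice 20.9 to 39.9, and RF.SAAR mice had 25.5 to 35 and HF.SAAR mice 26.6 to 42. Abcc4 was at 2.46 to 4.11 CPM, or 38 to 74 counts per mouse. Its diet differences were 0.22 ± 0.223 with regular fat and -0.30 ± 0.224 with high fat, and HF.SAAR mice lay below RF.SAAR mice (-0.28 ± 0.223). The regular-fat groups overlapped in CPM but not in TPM, at 0.507 to 0.6213 for RF.Ctrl and 0.7075 to 0.933 for RF.SAAR. With high fat they overlapped in both units. With so few reads, the split of its counts between transcripts was unstable, and Abcc4-202 held 0 to 100% of them in a mouse.

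**Figure D3:**
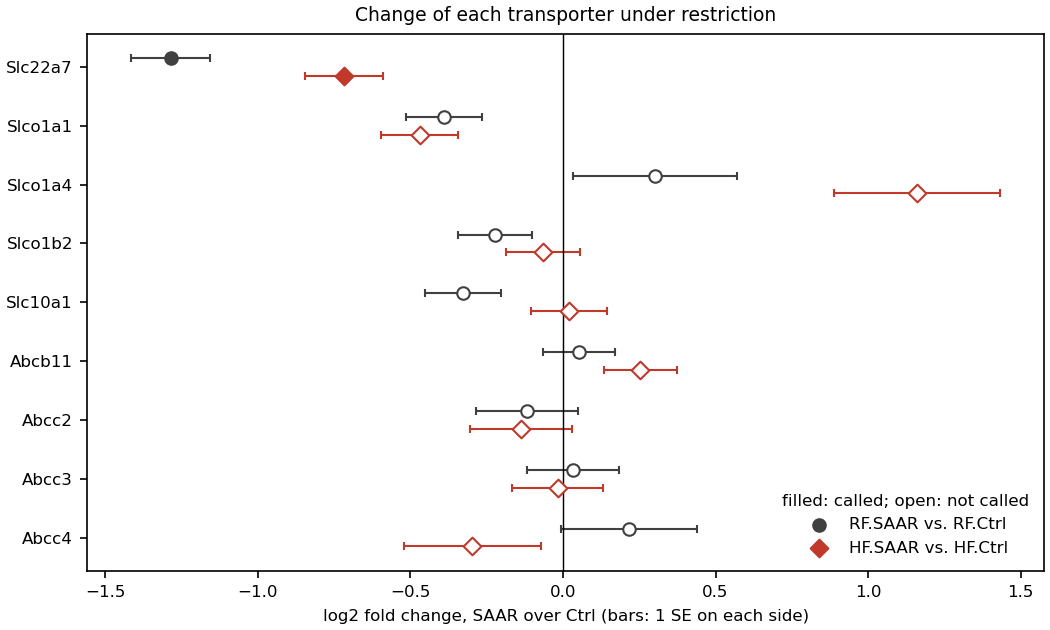
Log2 fold change of each transporter, SAAR over Ctrl, with 1 SE on each side, for regular fat (grey circles) and high fat (red diamonds). Slc22a7 is the only one with filled symbols, at -1.29 and -0.72, and Slco1a4 lies at 1.16 in high fat with an open symbol.

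In all, 1 of the 9 genes was called lower and 0 higher in each diet comparison. With regular fat, 0.600% of all tested genes were called in the higher direction and 0.886% in the lower. With high fat the shares were 1.01% and 0.961%. Of the members 3 had an unadjusted p under 0.05 in each, as did 1988 and 1825 of all 14670 genes. Groups did not overlap for 4 members in the lower direction and 0 in the higher with regular fat, where 9.70% and 8.51% of all genes did not overlap in those directions. With high fat the members were 2 lower and 1 higher, against 8.97% and 8.89% of all genes. The median log2 fold change of the members was -0.117 with regular fat and -0.0651 with high fat, against -0.00131 and -0.00144 for all genes. In HF.SAAR vs. RF.SAAR no member was called (0.0477% of all genes were, and 3 members had an unadjusted p under 0.05), and 4 members did not overlap, against 10.1% of all genes. In HF.Ctrl vs. RF.Ctrl no member was called by edgeR (0% of genes were, and 2 members had an unadjusted p under 0.05), and 2 members did not overlap, against 8.51% of all genes. No member was called in the interaction, where 0.00682% of genes were and 2 members had an unadjusted p under 0.05. Since the members were chosen with these contrasts known, nothing is read from these counts. The regular-fat and high-fat diet comparisons share no mice, but each shares a group with both fat comparisons.

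For orientation, 77 other transporters and regulators were listed by role, and 64 of them were tested. With regular fat 1 rose and 1 fell, by edgeR's quasi-likelihood test with Benjamini-Hochberg adjustment. Slc22a5, which encodes the carnitine carrier OCTN2, rose from 21.4 ± 4.43 to 44.3 ± 10.1 CPM (log2 fold change 1.05 ± 0.208, adjusted p = 0.0275). Aqp8, a water channel of the canalicular membrane, fell from 74.3 ± 4.72 to 37.6 ± 5.58 CPM (-0.98 ± 0.173, adjusted p = 0.0138). With high fat 3 fell. Slc22a28, an organic anion carrier, fell from 39.4 ± 1.12 to 16.4 ± 5.28 CPM (-1.26 ± 0.192, edgeR adjusted p = 0.00434). Abcg2, the export pump BCRP, fell from 102 ± 8.02 to 67.2 ± 2.64 CPM (-0.60 ± 0.106, edgeR adjusted p = 0.0105). Aqp8 fell again, from 56.5 ± 13.8 to 30.7 ± 4.56 CPM (-0.88 ± 0.173, edgeR adjusted p = 0.019). Calls made up 3.12% and 4.69% of the 64 tested. Of all genes tested, 0.600% were called higher and 0.886% lower with regular fat, and 1.01% and 0.961% with high fat. With regular fat, the call of Aqp8 was lost when RF.Ctrl mouse 1 or 3 or RF.SAAR mouse 1 or 3 was left out, and that of Slc22a5 when RF.Ctrl mouse 2 or 3, RF.SAAR mouse 2 or 3 or HF.Ctrl mouse 1 was left out. With high fat, the call of Aqp8 was lost without HF.Ctrl mouse 1 or 3 or HF.SAAR mouse 2 or 3, and scaling by library size alone ended the calls of Abcg2 and Aqp8, and offsets for effective length ended that of Abcg2. The fit of the compared groups alone ended the call of Slc22a5 with regular fat and that of Aqp8 with high fat. For the most abundant transcript, Slc22a28 with high fat was the one call left. Without the 5 mice rich in pancreatic markers the regular-fat calls held and the 3 high-fat calls were lost.

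Abundant genes of each role that edgeR did not call in either diet comparison are given next. Of these, DESeq2 called Slc22a30 at both fat levels and Abcb4 with regular fat, library size alone called Abcb4 with regular and Abcg8 with high fat, and leaving out HF.Ctrl mouse 3 called Slc22a30 with regular fat. Of the carriers, Slc22a30 (270 CPM) and Slco2b1 (105 CPM) had log2 fold changes of -0.43 ± 0.104 and -0.32 ± 0.124 with regular fat. With high fat they had -0.36 ± 0.103 and -0.12 ± 0.124. The canalicular proteins Abcb4, Abcg8 and Abcg5, which move phospholipid and sterols into bile, had 0.42 ± 0.103, 0.22 ± 0.127 and 0.09 ± 0.101 with regular fat. Their high-fat values were 0.17 ± 0.103, 0.40 ± 0.128 and 0.24 ± 0.101. In the list of basolateral exporters, Abcc6 had -0.09 ± 0.142, Abca1 -0.25 ± 0.186 and Abcc9 0.01 ± 0.166 with regular fat. Their high-fat values were 0.115 ± 0.142, -0.36 ± 0.186 and -0.02 ± 0.167. Abcc9 stood in that list although it encodes a subunit of potassium channels and not an exporter. With edgeR's reference settings 0 of the 22 receptors and hepatocyte factors tested were called in either diet comparison. At an unadjusted p under 0.05 were 2 and 3 of them, against 1988 and 1825 of all 14670 genes. With high fat, Nr1i2 was called with library size alone and Klb without HF.Ctrl mouse 3. The most abundant of them, Hnf4a, Cebpa and Rxra, had log2 fold changes of 0.00 ± 0.149, -0.09 ± 0.135 and 0.11 ± 0.0837 with regular fat. Those with an unadjusted p under 0.05 in that comparison, named after their values were seen, were Nr0b2 (-1.19 ± 0.477), which encodes the repressor SHP, and Nr1i3 (0.64 ± 0.218), which encodes the receptor CAR. Nr0b2 ranged from 12.9 to 57.4 CPM in RF.Ctrl mice and from 11.9 to 21.2 CPM in RF.SAAR mice, with overlap. Nr1i3 was at 111.7 to 154.5 CPM in RF.Ctrl mice and higher in every RF.SAAR mouse, at 180 to 272.5 CPM. With high fat the 3 were Nr1i2 (0.41 ± 0.139), Klb (0.42 ± 0.174) and Nr1i3 (0.52 ± 0.218), and Nr0b2 had -0.39 ± 0.468. The high-fat groups overlapped in CPM for each of these genes, with Nr1i3 at 144.2 to 230 in HF.Ctrl and 208 to 323 in HF.SAAR mice. In both fat comparisons and the interaction 0 of the 64 were called by edgeR, with 7, 6 and 3 at an unadjusted p under 0.05. Of all 14670 genes, 820, 527 and 462 were under it.

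**Figure D4:**
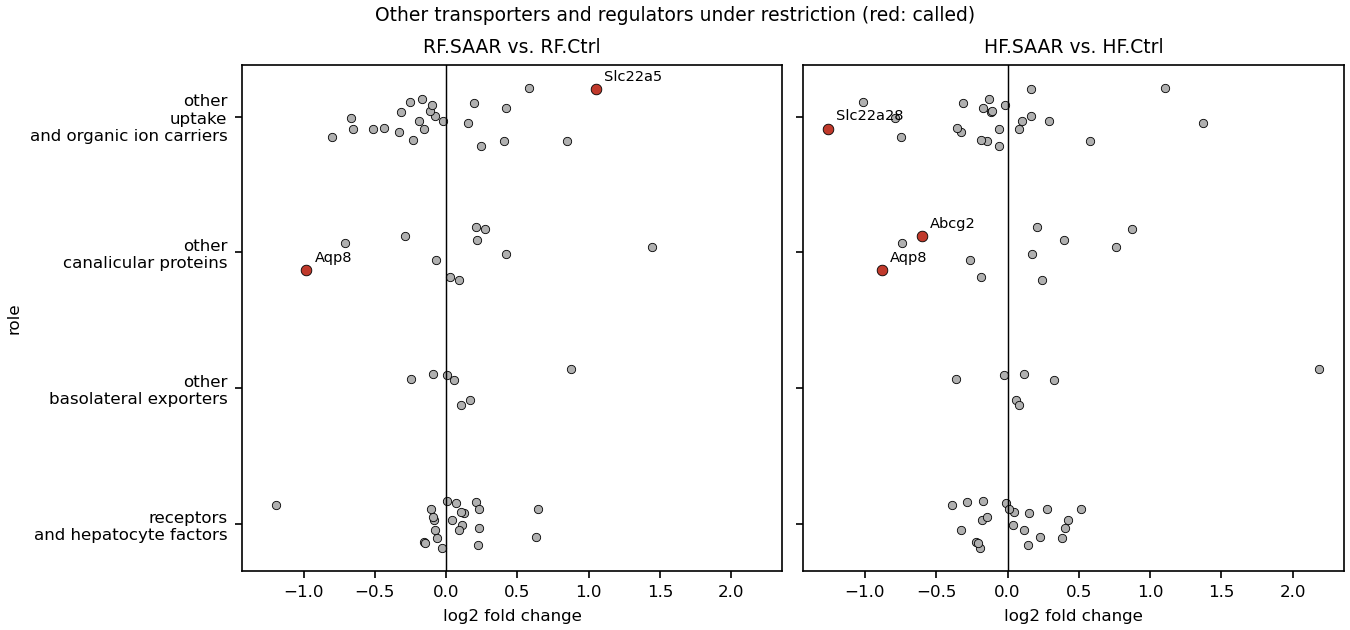
Log2 fold change (x axis) of the 64 other transporters and regulators tested, by role (y axis, jittered), for RF.SAAR vs. RF.Ctrl (left) and HF.SAAR vs. HF.Ctrl (right), with called genes in red. Aqp8 is red in both panels, at -0.98 and -0.88, and Slc22a5 is red at 1.05 with regular fat.

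Lists of similar genes were ranked by Pearson's r of log2 CPM over the 12 mice, as a description over mice that share a diet. For Slc22a7 the highest r was with Tmbim6 (0.96), then 2810006K23Rik (0.926) and Hsd3b3 (0.923). For Slco1a1 it was with Sec63 (0.948), Slc22a30 (0.945) and Vmn2r114 (0.935). Slco1a4 was most like Snhg11 (0.901), Baiap2 (0.9) and Nrn1 (0.898). Slco1b2 was most like Aldh6a1 (0.936), Cab39l (0.904) and Sord (0.9), and Slc10a1 like Baat (0.891), Erg28 (0.882) and Borcs8 (0.882). For Abcb11 the highest were Usp27x (0.899), Atxn2 (0.89) and Ttc12 (0.867), for Abcc2 Naaladl2 (0.923), Vps13b (0.922) and Rbm26 (0.921). For Abcc3 they were Nudt4 (0.892), Lrrc20 (0.869) and Spata7 (0.861), and for Abcc4 Gm49601 (0.896), Gm4707 (0.875) and Coro2b (0.855).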

How the data were processed

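Liver RNA of 12 mice was sequenced, and each mouse was quantified by the authors with kallisto after trimming with cutadapt. The deposited estimated counts are expected read pairs per transcript. The deposited TPM are counts divided by effective length and scaled per mouse. The deposited effective lengths in bases were estimated by the authors for each mouse. No normalization between mice or low-count filter had been applied. Identifiers were matched to GENCODE M21 on GRCm38 (116816 of 118489 transcripts; the rest held 1.08% of counts), and counts were summed by gene and rounded. The authors' transcriptome was an Ensembl release older than GENCODE M21.

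Genes were tested with edgeR 4.0.16 (R 4.3.3, limma 3.58.1), and with DESeq2 1.42.0 as an alternative. The edgeR model had 1 coefficient per group, used TMM factors, filterByExpr and the robust quasi-likelihood F-test, and included all 12 mice. Benjamini-Hochberg adjustment was made within each of 5 comparisons over 14670 genes. The SE is the size of a log2 fold change divided by the square root of F. Intervals and precision come from the spread between mice, and counts without molecular identifiers are not independent molecules. The labels give no replicate numbers, so no paired analysis was made.

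The members and the lists were chosen with earlier results of these data known, and the lists were written from general knowledge. All 9 members are named, with other genes called in a comparison, the 3 most abundant in each role and the 3 most alike genes by Pearson's r, except 1 gene that is not reported here. Alternatives were other size factors, library size alone, other filters, DESeq2, length offsets, the compared groups alone, the most abundant transcript, pancreatic markers left out, each mouse left out, and, added after seeing the data, the 5 mice with over 1000 CPM of pancreatic markers left out.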

Additional observations from a re-analysis of the deposited data

How the results depend on the processing

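Each result was computed under 22 alternatives (21 for the interaction). In RF.SAAR vs. RF.Ctrl the count of members called was 1 throughout, and no value of a called gene reversed. The number of other transporters and regulators called there (2) was 6 with DESeq2, 0 for the most abundant transcript and 0 to 3 with each mouse left out. In HF.SAAR vs. HF.Ctrl the members called (1) were 2 with library size alone, 3 with DESeq2, 2 with the compared groups alone, 0 for the most abundant transcript, 0 to 2 with each mouse left out and 0 without the 5 mice rich in pancreatic markers. The other genes called (3) were 5 with DESeq2, 1 for the most abundant transcript, and 0 without those 5 mice. In HF.SAAR vs. RF.SAAR the members called (0) were 1, Slc22a7, with RLE size factors, with no low-count filter, with DESeq2 and without HF.Ctrl mouse 3, so 0 to 1 with each mouse left out. The cause was not tested. Over all alternatives 26 of 218 counts moved. Leaving out the 5 mice leaves 1 mouse in each HF group, assumed to vary like the others. No paired analysis was possible because the labels give no replicate numbers. With 3 mice a group, values below about 2 SE cannot be told from the spread.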
